A study of Mus musculus with 8 samples.

Results

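The Cd200r2 Glp1r cells are CD8 T cells from the liver of EomesTG mice, recognised by transcripts that most CD8 T cells of these libraries lacked. A cell belonged to them when it held at least 2 unique molecular identifiers (UMIs, counts of single RNA molecules) of Cd200r2, Glp1r, Cela1 and Ccdc80 together, and more of these than of Prss2, Coch, Lmo1 and Penk together and than of Slc16a11, Calcb, Mrc2 and Clec10a together. The rule found 1219 of the 4521 EomesTG liver cells that passed the cell filter, 27.0% (95% binomial interval 25.7 to 28.3), out of 18732 cells in all 4 RNA libraries. Since the counts of these 12 genes chose the cells, their levels in the members describe the choice and support nothing further.

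The EomesTG mice are C57BL/6 mice homozygous for a transgene that expresses Eomes in T cells, made to ask what Eomes does to the gene program and clonal growth of CD8 T cells, and wild-type (WT) mice are plain C57BL/6. For each genotype 3 mice were combined, CD8 T cells were then sorted from spleen and from liver, and every combination yielded 1 RNA and 1 T cell receptor (TCR) library by the 10x Genomics 5′ method, 8 libraries in all. Age, sex and the promoter driving the transgene are not given in the sources used here, and no agent or infection is named for either genotype. With 1 library per group and no label that ties cells to mice, no difference was tested. All intervals below are 95% intervals for counting error alone (exact binomial for shares and ratios, exact Poisson for levels, and 3 counts of the total as the limit where it is said so), and each value has no replicate check.

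Cd200r2 belongs to the CD200 receptor family, whose founding member Cd200r1 is an inhibitory receptor for the membrane protein CD200, while its relatives Cd200r2, Cd200r3 and Cd200r4 lack the inhibitory tail and are known to work through adaptor proteins such as DAP12, the product of Tyrobp. Glp1r is the receptor for glucagon-like peptide 1, a hormone receptor that raises cyclic AMP and is best known from pancreatic beta cells. Cela1 is a secreted elastase-type serine protease, and Ccdc80 is a secreted protein of the extracellular matrix. Pdcd1 encodes PD-1, an inhibitory receptor of activated and exhausted T cells, and Eomes is a T-box transcription factor of cytotoxic and memory lymphocytes. A T cell clone is recognised by the rearranged sequence of its receptor, above all by the CDR3. This is the stretch where the V and J segments are joined, in the beta chain with a D segment between them.

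The TCR was not used to choose the members, and it divided them unevenly. The receptors of 3 clones are shown because clones 1 and 2 together held more than 1 in 2 of the members with a known TCR beta chain, whereas clone 3, the third in size, held almost none. Clone 3 was also rich in Prss2, which the rule counts against membership, at 701 CPM. Sequences run 5′ to 3′ through the CDR3, and capitals mark bases that matched neither the V nor the J segment of the GRCm38 annotation.
Clone 1 TRB, TRBV15 and TRBJ2-7: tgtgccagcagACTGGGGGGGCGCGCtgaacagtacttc
Clone 1 TRA, TRAV19 and TRAJ58: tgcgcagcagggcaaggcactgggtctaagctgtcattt
Clone 2 TRB, TRBV3 and TRBJ1-5: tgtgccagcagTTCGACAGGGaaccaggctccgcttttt
Clone 2 TRA, TRAV14D-1 and TRAJ23: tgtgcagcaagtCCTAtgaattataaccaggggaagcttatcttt
Clone 3 TRB, TRBV12-1 and TRBJ2-5: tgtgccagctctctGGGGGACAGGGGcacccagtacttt
Clone 3 TRA, TRAV13-1 and TRAJ31: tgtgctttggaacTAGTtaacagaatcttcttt
The 3 beta CDR3 had the same length of 39 bases, of which 15, 10 and 12 matched neither segment in clones 1, 2 and 3. A beta chain also holds a D segment between V and J, and D segments were not compared. These bases were therefore not sorted into D segment and added bases. The alpha CDR3 of clone 1 could be read whole from its V and J segments, with 0 other bases. The alpha chain shown was the leading one in all 448 cells of clone 1 and all 492 of clone 2 with an alpha chain, and in 233 of 308 such cells of clone 3. Only the alpha chain with the most UMIs was taken in each cell. A cell with 2 alpha chains could therefore be counted under either, so the other cells of clone 3 may also hold the chain shown.

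The libraries kept between 3150 and 5726 cells and 19137483 to 28760172 UMIs, and EomesTG liver held 20572245 UMIs with a median of 3919 per cell. The members summed to 5638024 UMIs, with medians of 3876 UMIs and 1633 genes per cell. The labelled cell type matched its markers: Cd3e was detected in 99.1% of members, Cd8a in 97.2% and Cd8b1 in 75.6%, and Cd4 had 0 UMIs. Of 16 marker lists for other cell types, 14 summed to at most 3.55 CPM (UMIs per 1000000 UMIs of the group) in the members, among them hepatocytes at 2.31 CPM and pancreatic islet cells at 0. The NK cell list (Ncr1, Klrb1c and Klri2, none at 0) stood at 49.0 CPM in members and 26.2 in the reference cells, and the list for gamma delta, MAIT and NKT cells at 153.6 and 126.7 CPM. Cell barcodes were shared with other libraries by 14, 9 and 10 members for WT spleen, EomesTG spleen and WT liver, and the share of members was 26.8% without shared barcodes. Of members with a beta chain, 4.85% had 2 productive beta chains (3.63 to 6.33), against 5.49% of the reference cells (4.38 to 6.78).

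Members carried a median of 3 UMIs of the 4 genes and at most 21. Cd200r2 was detected in 1037 of the 1219 members (85.1%), Cela1 in 693 (56.8%), Glp1r in 316 (25.9%) and Ccdc80 in 173 (14.2%). One gene alone brought 414 cells into the group, 627 cells held 2 of the 4 genes, 161 held 3 and 17 held all 4. Cd200r2 with Cela1 was the commonest pair, in 545 cells. Only 8 cells were members through Glp1r alone and 18 through Ccdc80 alone. Naive-like cells of the same library, which should lack these genes, had a UMI of Cd200r2 in 0.252%, of Cela1 in 0.631%, of Ccdc80 in 0.126% and of Glp1r in 0 of 793 cells, at a median of 6010 UMIs per cell. With every cell thinned to 2000 UMIs the members' shares were 63.0, 35.4, 13.7 and 8.43% for Cd200r2, Cela1, Glp1r and Ccdc80.

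**Figure D1:**
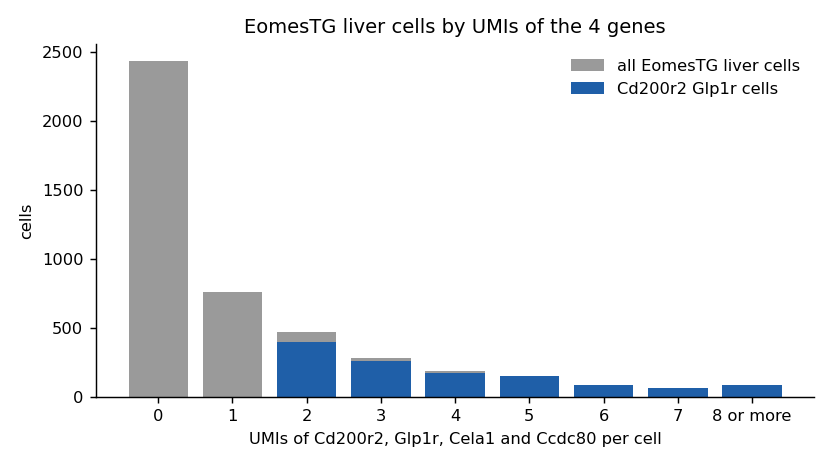
Number of EomesTG liver cells (y axis) by the number of UMIs of Cd200r2, Glp1r, Cela1 and Ccdc80 in the cell (x axis); grey bars are all 4521 cells and blue bars the 1219 members. Most cells held 0 or 1 such UMI, 399 members sat at the smallest admitted count of 2, and 85 held 8 or more.

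The 4 genes were nearly confined to EomesTG liver among the 4 libraries. Cd200r2 stood at 0.0348 CPM in WT spleen, 0.0354 in EomesTG spleen, 3.55 in WT liver and 159 in EomesTG liver. For Glp1r the order was 0.0695, 0.0354, 0.209 and 25.8 CPM. Cela1 was at 1.18, 1.13, 5.43 and 78.2 CPM, and Ccdc80 was at 0 in both spleens, 0.105 in WT liver and 19.3 in EomesTG liver. EomesTG liver was the highest for each gene, WT liver lay between, and the counting intervals of the spleens overlapped for all 4. The rule was met by 0 of 5335 cells of WT spleen, which allows a share of up to 0.0562% (3 cells of 5335), by 1 of 5726 cells of EomesTG spleen and by 25 of 3150 cells of WT liver, 0.794% (0.514 to 1.17).

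Cells on both sides of the threshold of 2 UMIs differed in degree. Of 757 cells with 1 such UMI, the 521 without any UMI of the other gene sets were taken as just outside. They had a median of 3173 UMIs and 77.5% had a Pdcd1 UMI. Members could hold UMIs of the other sets, and 335 did, so the 2 sides differ in this too. The 399 members with exactly 2 had a median of 3489 UMIs, and 84.5% had a Pdcd1 UMI. In members with 5 or more the median was 4395 UMIs and 93.7% had a Pdcd1 UMI, so depth moved with the count. With every cell thinned to 2000 UMIs, 636 of 3935 cells met the rule, 16.2% against 27.0% unthinned.

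Some genes outside the rule rose with the count or changed at the threshold on the CPM scale, which divides by the UMIs of each class. Cd200r1 went from 123 CPM in the cells just outside to 147, 201 and 209.5 CPM in members with 2, with 3 or 4, and with 5 or more. The intervals of the last 2 classes overlap (181 to 221 and 190 to 230). Gzma, which encodes the granule protease granzyme A, stood at 7700 CPM outside the threshold and at 8418, 10061 and 11561 CPM inside it. Ly6a, a surface marker of activated and less differentiated lymphocytes, was at 38.0 CPM outside and at 5.59, 6.52 and 3.93 CPM inside, a step at the threshold. Fcer1g showed neither a rise nor a step, at 133, 142, 133 and 130 CPM.

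**Figure D2:**
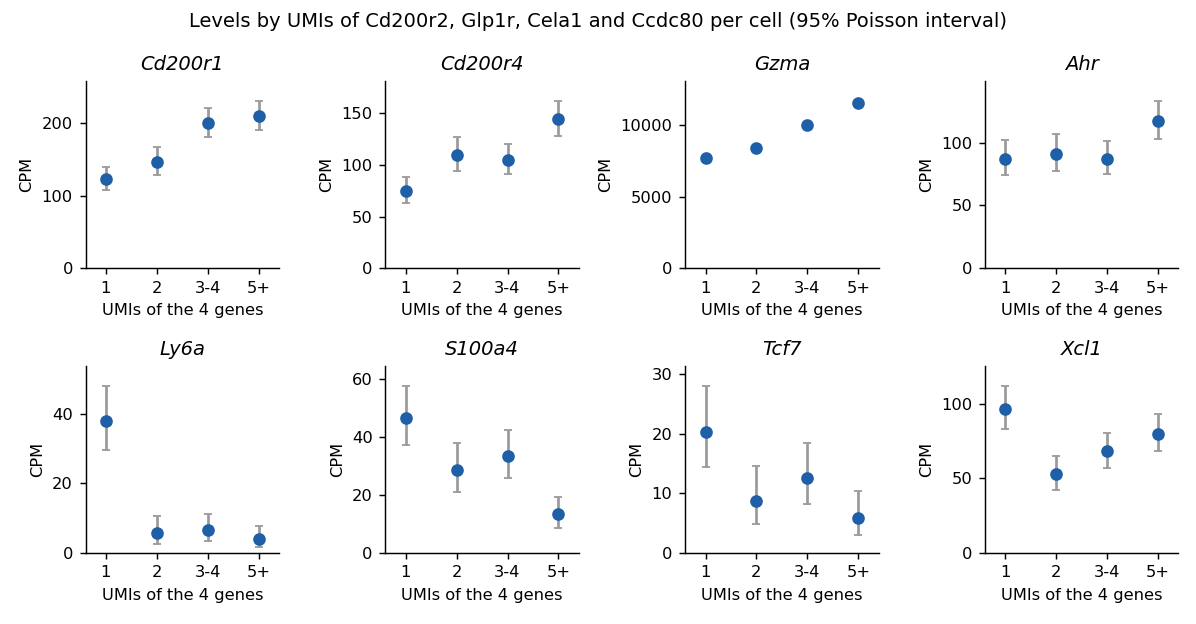
Level in CPM (y axis, from 0) of 8 genes outside the rule in EomesTG liver cells. The x axis gives 1, 2, 3 to 4 and 5 or more UMIs of the 4 genes per cell. Cells at 1 are the 521 without any UMI of the other gene sets. Bars are 95% Poisson intervals, hidden by the point for Gzma. Cd200r1, Cd200r4 and Gzma were highest in members with 5 or more, and Ly6a stood at 38.0 CPM just outside the rule and under 7 CPM in each class of members.

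Members were few among cells of small clones and frequent in large ones. Of the 1084 cells whose beta chain was seen once in the library, 18 were members (1.66%, 0.987 to 2.61). The share was 11.2% (7.54 to 15.7) in clones of 2 to 4 cells, 27.6% (22.3 to 33.4) in clones of 5 to 19 and 41.1% (39.1 to 43.2) in the 24 clones of 20 or more cells. Among cells with a Pdcd1 UMI alone the order was the same, with 7.87, 19.3, 33.0 and 42.9%. Without the 3 largest clones the share in clones of 20 or more cells was 36.7% (33.6 to 40.0), above that of each smaller class. Among cells with a Pdcd1 UMI it was then 39.2% (35.7 to 42.7). That interval overlaps the 26.4 to 40.1 of such cells in clones of 5 to 19. Cells of a clone share an ancestor, so these intervals treat related cells as independent.

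A beta chain was known for 1052 members, which fell into 82 clones. Clone 1, of 533 cells, gave 349 of them (33.2%, 30.3 to 36.1) and clone 2, of 522 cells, gave 254 (24.1%, 21.6 to 26.9). Clone 3, of 325 cells, gave 4 (0.380%, 0.104 to 0.971). The reference for comparison was the 1711 other EomesTG liver cells with at least 1 Pdcd1 UMI, of which 1475 had a beta chain. In these, clone 1 made up 11.1% (9.50 to 12.8), clone 2 16.3% (14.5 to 18.3) and clone 3 18.2% (16.2 to 20.2). Clone 3 was instead the main clone of the Prss2 Coch cells, the group defined the same way by Prss2, Coch, Lmo1 and Penk, with 209 of 261 cells (80.1%).

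Seen from the clones, 65.5% of clone 1 were members (61.3 to 69.5), 48.7% of clone 2 (44.3 to 53.0), 20.9% of clone 4 (14.3 to 29.0) and 1.23% of clone 3 (0.336 to 3.12). These intervals do not overlap. The low share of clone 3 is in part a product of the rule. It had 22 cells with 2 or more UMIs of the 4 genes, of which 4 were members. The others were left out by their counts of the other gene sets. In clone 1, 364 cells held 2 or more and 349 were members. The highest share over the 24 large clones was 73.9% in clone 21, with 17 of 23 cells, and its interval of 51.6 to 89.8 overlaps that of clone 1. The median was 38.6%, 6 clones lay above 50% and 2 below 10%. Clone 22, with TRBV31, had 0 members among 22 cells, which allows a share of up to 15.4% by the exact interval. That clone was also low in Pdcd1, at 36.6 CPM against a median of 740.4 CPM over the 24 clones, and high in the naive and memory transcription factor Tcf7, at 128 CPM against a median of 1.37.

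**Figure D3:**
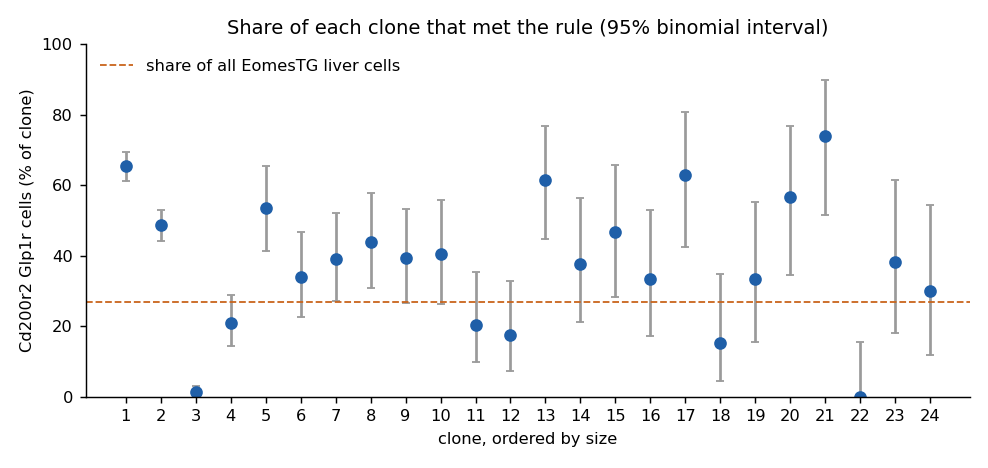
Share of each clone's cells that were members (y axis, %) for the 24 clones of 20 or more cells, numbered by size (x axis); bars are 95% binomial intervals and the dashed line is the 27.0% of all EomesTG liver cells. Clones 3 and 22 lie at 1.23% and 0%, and clone 21 is highest at 73.9%.

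The 4 genes did not move as 1 block from clone to clone. Cd200r2 was at 422 CPM in all cells of clone 1 (396 to 450), 281 in clone 2 (260 to 304), 56.9 in clone 4 (40.3 to 78.1) and 10.2 in clone 3 (5.59 to 17.2), with a median of 243 CPM over the 24 clones and a highest value of 451 in clone 21. Cela1 was at 239, 124, 40.4 and 65.0 CPM in clones 1, 2, 4 and 3, so clone 3 held Cela1 with little Cd200r2. Ccdc80 had another order of clones. It stood at 5.82 CPM in clone 1 and 5.54 in clone 2, the clones with most members, and at 86.9 in clone 4, 234 in clone 17, 144 in clone 20 and 328 in clone 21. Glp1r was at 61.3 CPM in clone 1 (51.5 to 72.5), 40.1 in clone 2 (32.4 to 49.0), 59.9 in clone 4 (42.8 to 81.6) and 11.0 in clone 3 (6.13 to 18.1), and most smaller clones had too few UMIs to place it.

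**Figure D4:**
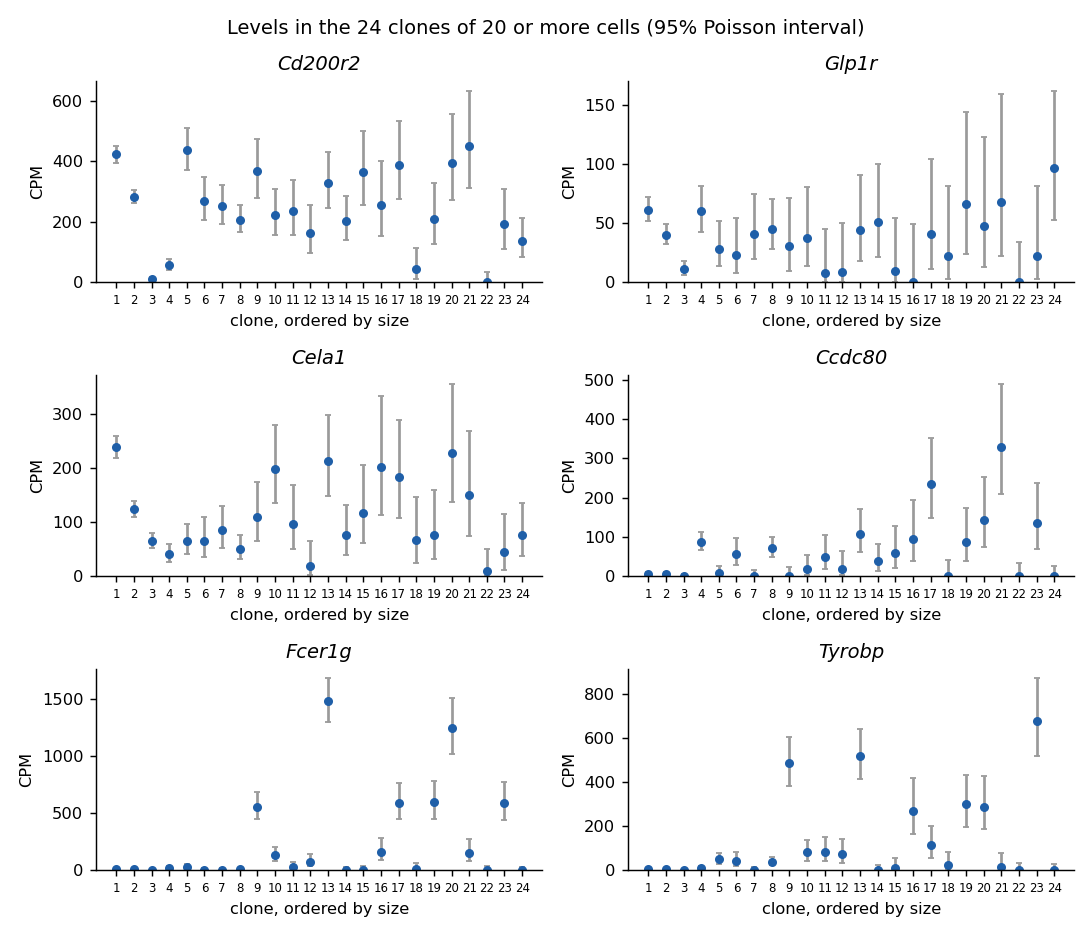
Levels in CPM (y axes, from 0) of Cd200r2, Glp1r, Cela1, Ccdc80, Fcer1g and Tyrobp in all cells of the 24 clones of 20 or more cells, numbered by size (x axes), with 95% Poisson intervals. Ccdc80 peaks at 328 CPM in clone 21 and Fcer1g at 1480 CPM in clone 13, while both are under 7 CPM in clones 1 and 2.

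Members and reference cells carried inhibitory receptor transcripts at similar levels, and few genes differed by 1.5-fold or more. Of 5670 genes with a mean of at least 20 CPM over both sides, 39 were at least 1.5-fold higher in members (0.688%) and 44 at least 1.5-fold lower (0.776%), rule genes and receptor segments included. Pdcd1 was at 749 CPM in members and 701 in reference cells, although each reference cell had to hold a Pdcd1 UMI and members did not. Tox, a transcription factor of exhausted T cells, was at 557 and 504 CPM, Lag3 at 516 and 452, Tigit at 490 and 463, and Eomes at 198 and 221. None of the 10 inhibitory receptor genes past the floor reached 1.5-fold, with a median log2 ratio of 0.14 beside 0.02 over all genes.

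**Figure D5:**
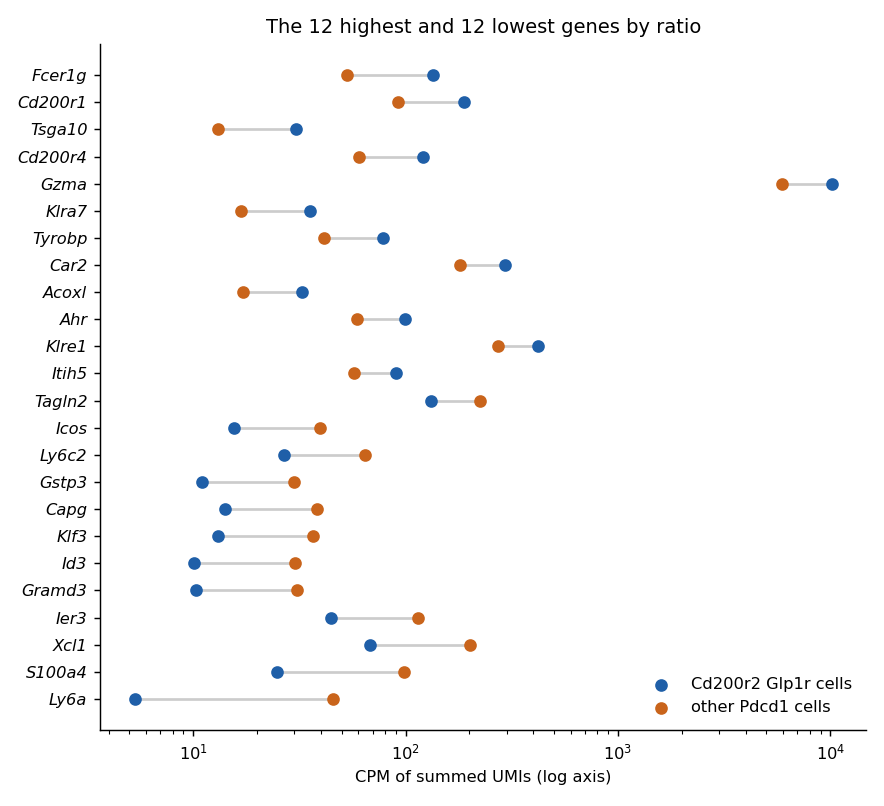
Levels in CPM (x axis, log scale) of the 12 genes highest and the 12 lowest in members (blue) relative to the reference cells (orange), ranked by the interval bound nearest to equality. Gzma, at 10133 and 5906 CPM, is far more abundant than the others, and Ly6a has the widest gap, 5.32 against 45.3 CPM.

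Of the CD200 receptor family, the 2 relatives of Cd200r2 with enough UMIs were about 2-fold higher in members. Cd200r1 was at 188 CPM in members and 92.3 in reference cells, a log2 ratio of 1.03 (0.89 to 1.17), and Cd200r4 at 120.4 and 60.4 CPM, a log2 ratio of 0.997 (0.82 to 1.17). Cd200r2, a gene of the rule, was at 493 and 58.1 CPM. Cd200r3 had 7 and 5 UMIs, too few to place. The ligand gene Cd200 was lower, at 16.1 against 29.8 CPM, a log2 ratio of -0.88 (-1.25 to -0.53), although over clones with both kinds of cell it was higher in members in 11 and lower in 3 of 22. Of the 7 genes of the list for CD200 receptors, ligand and downstream adaptors past the floor, 3 were higher, with the rule gene Cd200r2 among them, 1 lower and 3 neither. The last were the adaptor genes Dok1 and Dok2 and the Ras regulator Rasa1, with log2 ratios of 0.41, -0.33 and 0.44. These receptors are close relatives, and reads that fit more than 1 of them could be assigned differently by another counting, which was not tested.

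In the GRCm38 annotation the family lies in 1 stretch of chromosome 16 that also holds another gene of the rule. Cd200r1 spans chr16:44765736-44794978, Cd200r4 chr16:44811733-44839150, Cd200r2 chr16:44867097-44915840 and Cd200r3 chr16:44943678-44981380, all on the plus strand. Ccdc80, at chr16:45093402-45128077, starts 226.3 kb from the start of Cd200r2, and the next gene past the floor, Atg3, had a log2 ratio of 0.26. The ligand gene Cd200 lies beyond it on the minus strand, at chr16:45382135-45409053. Of the other 4 genes past the floor within 500 kb of Cd200r2, 3 were at least 1.5-fold higher, namely Cd200r1, Cd200r4 and the rule gene Ccdc80. Glp1r lies at chr17:30901817-30940791 on the plus strand and Cela1 at chr15:100674421-100687921 on the minus strand, and 0 of the 4 and 0 of the 5 genes past the floor near them were called. Clone 1 was high in Cd200r2 and low in Ccdc80, while clone 21 was high in both.

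Since the mice carry extra Eomes, the promoters of the 4 genes were searched for AGGTGTGA, the core DNA motif known for T-box factors, on both strands. RefSeq (GRCm38.p6) gave a window of 250 bases before to 50 after the start for 3 of the 4 genes, all but Ccdc80. The motif was in 1 of them, Cd200r2, and in 419 of all 32851 promoters in the table (1.28%). The Cd200r2 promoter is printed because it holds the match, as the 250 bases before the start on the plus strand at chr16:44866847-44867096, with the match in capitals on the reverse strand, its first printed base 149 bases before the start.
Cd200r2 promoter: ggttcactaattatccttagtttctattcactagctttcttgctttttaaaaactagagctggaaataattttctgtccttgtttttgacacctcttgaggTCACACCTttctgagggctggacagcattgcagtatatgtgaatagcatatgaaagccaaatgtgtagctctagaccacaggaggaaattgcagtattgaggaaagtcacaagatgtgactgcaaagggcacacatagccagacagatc
The match is a description of the letters in this window, and whether Eomes acts on any of the 4 genes was not tested. Eomes itself was not higher in members, at 198 CPM (186 to 210) against 221 in reference cells (210 to 232), and over the 24 large clones it ran from 55.0 to 334 CPM.

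Several NK receptor and adaptor genes were higher in members, and the cells that carried them differed from gene to gene. Of 11 such genes past the floor, 5 were at least 1.5-fold higher and 0 lower, at a list median of 0.46 on the log2 scale: Fcer1g, Klra7, Tyrobp, Klrb1c and Klre1. Only 2 reached 1.5-fold when the Prss2 Coch cells and the Slc16a11 Calcb cells, the group defined by Slc16a11, Calcb, Mrc2 and Clec10a, were left out of the reference. Fcer1g, the Fc receptor gamma chain that carries signals for several NK receptors, was at 135 CPM in members and 53.1 in reference cells, a log2 ratio of 1.34 (1.16 to 1.52). Tyrobp was at 78.6 and 41.3 CPM, a log2 ratio of 0.93 (0.71 to 1.14), which fell below 1.5-fold, to 0.54, against that smaller reference and to 0.55 in members with a Pdcd1 UMI. Klre1, an NK receptor of the lectin family, was at 419 and 271 CPM, a log2 ratio of 0.63 that was under 1.5-fold in 6 of the alternatives, down to 0.46 without the 3 largest clones.

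Klre1 was detected in 64.7% of members and 43.2% of reference cells (48.3 and 32.8% at 2000 UMIs per cell), whereas Fcer1g, Tyrobp and Klra7 came from a minority, at 9.02, 10.5 and 5.58% of members. Fcer1g was detected in 110 of 1219 members (9.02%, 7.47 to 10.8), in 4.50% of reference cells (3.57 to 5.59) and in 0.757% of naive-like cells, and at 2000 UMIs per cell in 7.72, 3.28 and 0.383%. The 64 members with 5 or more Fcer1g UMIs held 85.9% of the members' Fcer1g UMIs. All 64 had Cd3e, 56 had a beta chain, from 28 clones, 5 had 2 beta chains, and they held all 11 UMIs of the NK receptor gene Ncr1 found in members. Both Fcer1g and Tyrobp were detected in 64 members.

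Clones separated these cells as well. Clones 1 and 2, with 603 members, held 2.50% of the members' Fcer1g UMIs, at 6.99 CPM (4.21 to 10.9). Clones 9, 13, 17, 19, 20 and 23, singled out after their levels were seen, held 50.6% in 92 members, at 1024 CPM (924 to 1131). The reference cells of the same 6 clones stood at 695 CPM (601 to 801). Tyrobp in those 6 clones was at 392 CPM in members (331 to 461) and 453 in reference cells (377 to 539), intervals that overlap. Cd200r2 was thus high with little Tyrobp in clone 1 (422 and 4.48 CPM) and high with much Tyrobp in clone 13 (327.5 and 516 CPM).

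Among effector genes granzyme A stood out. Gzma was at 10133 CPM in members (10050 to 10216) and 5906 in reference cells (5851 to 5962), a log2 ratio of 0.78, and was detected in 95.9 and 78.4% of cells, or 94.5 and 73.6% at 2000 UMIs per cell. Other granule genes were close to equality, with Gzmb at 901 and 805 CPM, Gzmk at 778 and 734, Nkg7 at 4830 and 4631 and Prf1, which encodes perforin, at 135 and 169. Of 12 cytotoxic genes past the floor 1 was higher and 0 lower. Of 12 chemokine and cytokine genes 0 were higher and 1 was lower, Xcl1, a chemokine for cross-presenting dendritic cells, at 68.1 against 200.5 CPM, a log2 ratio of -1.56 (-1.72 to -1.39). Ccl3, Ccl4, Ccl5 and Ifng had log2 ratios of 0.44, 0.24, 0.04 and -0.02.

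The remaining higher genes were a mixed set. Ahr, the ligand-activated transcription factor of barrier lymphocytes, was at 99.3 and 59.0 CPM (log2 ratio 0.75), and Car2, a carbonic anhydrase, at 295 and 179.7 CPM (0.72). Tsga10, known from sperm tails, was at 30.5 and 13.1 CPM (1.21), Acoxl, a relative of peroxisomal acyl-CoA oxidases, at 32.5 and 17.2 (0.92), and Itih5, a protein of the inter-alpha-trypsin inhibitor family, at 90.5 and 57.4 (0.66). Transcripts of signalling genes downstream of a receptor such as Glp1r were near equality in the sums over all members. Only 25.9% of members had a Glp1r UMI, and whether the receptor signals was not tested. Of 17 cAMP pathway genes past the floor 0 were called in either direction, with a median log2 ratio of 0.11, the phosphodiesterase gene Pde3b being farthest at 0.51 and the cAMP-responsive repressor Crem at 0.41.

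Ly6a was at 5.32 CPM in members against 45.3 (log2 ratio -3.09, -3.68 to -2.55), S100a4, a calcium-binding protein of effector and memory cells, at 24.8 against 98.0 (-1.98), and Ier3, an immediate early survival gene, at 44.5 against 114 (-1.36). Ier3 was no longer past 1.5-fold without the 3 largest clones, at -0.51, or with each clone counted once, at -0.57, while S100a4 and Xcl1 stood at -0.91 and -0.87 with each clone counted once. Id3, a transcriptional inhibitor of memory precursors, was at 10.1 against 30.04 CPM (-1.57), Klf3 at 13.1 against 36.5 (-1.47), Ly6c2 at 26.8 against 64.6 (-1.27) and Icos, a costimulatory receptor, at 15.6 against 39.4 (-1.34). Gramd3, the actin-capping gene Capg, the glutathione transferase gene Gstp3 and the actin-binding gene Tagln2 complete the 12 lowest, with log2 ratios of -1.58, -1.44, -1.44 and -0.76. Of these 12 genes, Ly6c2, Tagln2, Id3, Klf3, Gramd3, Ly6a and Gstp3 stood well above the reference in naive-like cells, at 896, 480.0, 215, 208, 179.9, 178 and 76.1 CPM. Xcl1, Ier3, Capg and S100a4 stood below it there, at 49.6, 14.3, 12.4 and 7.24 CPM. Tcf7 lay under the floor at 9.05 against 29.6 CPM. Of 13 cell cycle genes 2 were lower, Rrm2 and Tyms, and 0 were higher (median log2 ratio -0.24).

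The other lists held few or no called genes. Of 17 transcription factors of exhaustion and residency 1 was lower, Nr4a1, an early response gene of TCR signalling, at 64.9 against 104 CPM (log2 ratio -0.68, -0.86 to -0.50). Of 12 chemokine receptor and adhesion genes 1 was lower, Itgb7, an integrin subunit of gut homing, at 37.1 against 67.6 CPM (-0.87, -1.11 to -0.63). Of 11 extracellular protease and matrix genes 2 were higher and 2 lower, all 4 of them genes of the rule. No gene past the floor was called in the lists for cytokine receptors (13 genes), TCR signalling (16), interferon response (8), immediate early genes (14), heat shock (11), glycolysis (14), mitochondrial oxidation (14), apoptosis and survival (14) and MHC class I (11), whose medians lay between -0.18 and 0.05.

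Since members and reference cells differed in clones, members were also set against reference cells of the same clone. Over the 22 clones with at least 5 cells on each side, a gene of the 5670 was higher in members in a median of 11 clones, with 7 and 15 at the 5th and 95th percentiles. Car2 was higher in 20 of the 22 clones, Cd200r1 and Cd200r4 in 18 each, and Ahr and Gzma in 16 each. Tsga10 was higher in 14 and lower in 6. The other 6 of the highest genes lay near the median gene: Klre1 and Itih5 were higher in 13 clones each, Acoxl in 12, and Fcer1g, Klra7 and Tyrobp in 11 each, with Fcer1g lower in 5 and undetected in 6. Among the lowest genes, S100a4 and Tagln2 were lower in 14 clones each and Ier3 and Xcl1 in 13 each. S100a4, Tagln2, Ier3 and Xcl1 were higher in 4, 8, 4 and 6 clones and undetected in 4, 0, 5 and 3. Only the 8 of Tagln2 lies within the 7 to 15 given for all genes. Clones in which a gene was lower were not counted over all genes. Id3, Capg and Icos were lower in 8 clones each, Gramd3 and Klf3 in 7 each, Gstp3 in 6 and Ly6c2 in 5, while Icos and Ly6c2 were higher in 7 each and Gstp3 in 6. Ly6a was undetected in 17 of the 22 clones and lower in 4, so these clones held little of its contrast. Pdcd1 was lower in members in 17, in a comparison in which the reference cells alone had to hold it.

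The 2 leading clones give the closest look. Within clone 1 (349 members, 163 reference cells) Cd200r4 had a log2 ratio of 1.04 (0.58 to 1.52), Cd200r1 0.31 (0.01 to 0.62), Gzma 0.71 (0.66 to 0.76), Ahr 0.77 (0.24 to 1.34) and Xcl1 -1.45 (-1.96 to -0.95). Within clone 2 (254 members, 241 reference cells) the same genes had 0.68 (0.29 to 1.08), 0.64 (0.32 to 0.96), 0.40 (0.36 to 0.44), 0.74 (0.31 to 1.17) and 0.12 (-0.81 to 1.06). Cd200r1 in clone 1 and Gzma in clone 2 thus lay under 1.5-fold. Xcl1 was lower in members of clone 1, while in clone 2 it was low on both sides, at 19.6 and 18.1 CPM. Car2 had 0.27 (-0.02 to 0.57) in clone 1 and 0.28 (0.05 to 0.50) in clone 2. Klre1 had 0.09 and 0.13 and Itih5 -0.06 and 0.26, so these 3 genes were under 1.5-fold in both clones. Of the 12 highest genes 9 kept their direction in clone 1 and 12 in clone 2, and of the 12 lowest 7 and 6 did. The cells of both clones were among those that ranked these genes, so such agreement is partly built in. Its share over all genes was not counted. The interval lay on that side for 5 and 7 of the highest and for 5 and 3 of the lowest. In clone 1 an interval lay on the other side for Klra7, at 2.68 against 20.3 CPM, and for Ier3, at 21.4 against 8.72 CPM, a log2 ratio of 1.30 (0.02 to 2.85).

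Members of clones 1 and 2 met the same rule, and some genes differed strongly between them. Of 5656 genes past the floor, 225 were at least 1.5-fold higher in clone 1 members (3.98%) and 236 in clone 2 members (4.17%), on smaller sums of UMIs than for all members. The call uses no interval, and how many of these genes passed it through counting error was not tested. Klrk1, which encodes the activating receptor NKG2D, was at 360.0 CPM in clone 1 members and 22.0 in clone 2 members, a log2 ratio of 4.03 (3.47 to 4.64). Cd8b1, the CD8 beta chain, was at 858 and 138 CPM (2.64, 2.41 to 2.88), and Klre1 at 574 and 170 CPM (1.76). Spp1, which encodes osteopontin, was at 0.669 and 49.8 CPM, and Cd6, a costimulatory surface receptor, at 60.2 and 237 CPM. The replication genes Rrm1 and Lig1 were at 36.1 against 109 and 20.1 against 65.3 CPM, higher in clone 2. Pdcd1 and Tox differed little, with log2 ratios of 0.14 (0.02 to 0.27) and -0.07 (-0.22 to 0.08).

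Members were also compared with the 2 groups defined by the other gene sets. These groups held 1475831 and 849373 UMIs against 7456387 in the reference, so their ratios carry more counting error and the numbers of genes past 1.5-fold are not comparable. Against the 309 Prss2 Coch cells, 302 of 5566 genes were at least 1.5-fold higher in members (5.43%) and 136 lower (2.44%). Fcer1g was at 135 against 10.8 CPM, Tyrobp at 78.6 against 6.78, Klre1 at 419 against 96.9, Cd200r1 at 188 against 50.8, Klrd1 at 686 against 224 and Klrk1 at 239 against 82.0. Of 10 NK receptor and adaptor genes past the floor 8 were higher, at a list median of 1.76 on the log2 scale. Ppic, a cyclophilin, was lower at 5.85 against 64.4 CPM, Maf, a transcription factor of regulatory and IL-10-producing T cells, at 11.5 against 54.9, S100a4 at 24.8 against 159.9 and Ier3 at 44.5 against 259. AB124611 and Wdr95 complete that list, with log2 ratios of -3.18 and -2.88. Since 80.1% of the Prss2 Coch cells with a beta chain were clone 3, this comparison cannot be told apart from one of that clone with the others.

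Against the 119 Slc16a11 Calcb cells, 332 of 5676 genes were higher in members (5.85%) and 392 lower (6.91%). All 14 cell cycle genes past the floor were lower in members (median log2 ratio -1.16), among them Mki67 at 94.4 against 235 CPM and Cdk1 at 42.7 against 122. Cd74, the invariant chain of class II presentation, was at 4.43 against 161 CPM, Cybb, the NADPH oxidase subunit of phagocytes, at 4.43 against 47.1, and Capg at 14.2 against 71.8. The Cd74 UMIs came from 10 of the 119 cells, and the dendritic cell marker list summed to 100.1 CPM in the Slc16a11 Calcb cells (85 UMIs, 2 of 6 genes at 0) and 0.887 CPM in members. The part of such cells in these values was not tested. Ckap2, Hist1h2ap and Tubb2a, genes of mitosis, histones and microtubules, were lower too, with log2 ratios of -2.11, -1.52 and -2.03. Fcer1g, at 135 against 17.7 CPM, and Fos, an immediate early gene, at 694 against 239, were higher, as were Rab37, Coq8b and Rflnb with log2 ratios of 2.38, 2.04 and 1.83, and Zfp652 at 33.0 against 8.24 CPM. The Slc16a11 Calcb cells had a median of 6001 UMIs against 3876 in members, and 14.4% of them had 2 beta chains (8.47 to 22.4) against 4.85%. The part of cells caught together in these values was not tested.

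Members were near each other in overall expression without the rule genes, but did not stand alone. In 30 principal components computed without the 12 genes of the rule and without receptor segments, 51.6% of the 15 nearest neighbours of a member were members, against 27.0% of the library. For a reference cell 33.4% were members, and for a naive-like cell 0.900%. Cells of clone 1 had 55.4% member neighbours, those of clone 2 46.9% and those of clone 3 14.99%. Of the neighbours of clone 1 cells 40.8% were clone 1 cells, which make up 11.8% of the library.

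Outside EomesTG liver the few cells that met the rule differed in several respects. The 25 such cells of WT liver had a UMI of Cd200r2 in 18 and of Cela1 in 15, but Glp1r and Ccdc80 in 0. Only 5 had a Pdcd1 UMI, and the 24 with a beta chain belonged to 24 clones, none shared with the members. Against the 249 other Pdcd1 cells of WT liver, Fcer1g was at 1736 against 107 CPM and Tyrobp at 1605 against 54.2 CPM, with log2 ratios of 4.02 (3.76 to 4.28) and 4.89 (4.56 to 5.22). Gzma and Klra7 were higher too, with log2 ratios of 2.58 and 3.12. Each of the 12 genes highest in EomesTG liver members lay on the same side in WT liver, 9 of them with the interval, and 9 of the 12 lowest did, 4 with the interval. The share of all genes on the same side was not counted. The 2 contrasts are also unlike, since 20% of the 25 cells had a Pdcd1 UMI against 88.5% of the members.

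In EomesTG spleen 3 of the members' 82 clones (3.66%) and 18 of the 228 clones of the reference cells were seen. These counts are small, a difference was not tested, and the share over all clones of the library was not counted. The 3 clones had 17 spleen cells, of which 15 belonged to clone 3, the clone with 4 members. Clones 1 and 2 had 0 cells there.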

How the data were processed

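RNA and TCR libraries of 4 groups (WT and EomesTG, spleen and liver) were used, 1 library each. Expression files were deposited by the authors as matrices of UMI counts, not normalized, made with Cell Ranger on mm10 per the submitters' processing notes, and per the file headers with software version 3.1.0 and format version 2. Receptor contigs were deposited with their UMI counts and V, J and CDR3 calls by the authors' software. Barcodes with at least 500 UMIs, 300 genes and under 10% mitochondrial UMIs were kept, and no doublet caller was run. The transgene's reads were not separated from those of endogenous Eomes.

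UMIs were summed over cells and scaled per 1000000. A gene needed a mean of 20 CPM over both sides, and 1.5-fold was the call. Clones were defined by V, J and nucleotide CDR3 of the productive TRB chain with most UMIs. Naive-like cells had 3 or more UMIs summed over 5 listed naive T cell markers and none of Pdcd1, and 3 of the 793 were members. Reference cells included 258 Prss2 Coch and 113 Slc16a11 Calcb cells, and 108 cells with 2 or more UMIs of the 4 genes fell outside the members through the other sets. Neighbours came from 2000 variable genes, scaled to 10000 UMIs per cell. Positions are from GENCODE for GRCm38 (99.6% of 31053 gene IDs matched).

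The members and the 20 gene lists were chosen with earlier results of these data known. Named genes were the 12 rule genes, Eomes, Pdcd1, Tox, Tcf7, the Cd200 family, the 12 highest and 12 lowest by interval bound (6 each way for the other 2 comparisons), and up to 4 genes a list with the largest ratios. Antigen receptor, mitochondrial, ribosomal protein and sex-linked genes, unnamed gene models and markers of other cell types were left out of the ranked names. Further genes of lists, the comparison of clones 1 and 2, the count of directions over clones and the split of Fcer1g by clone were chosen after the values were seen. The script was tested on simulated data. Tools were scanpy 1.11.5, scikit-learn 1.9.0, scipy 1.17.1, pandas 2.3.3, numpy 2.4.6 and matplotlib 3.10.9 under Python 3.11.15.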

Additional observations from a re-analysis of the deposited data

Results flagged for a closer look

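For 2 genes the ratio of cells that met the rule to other Pdcd1 cells pointed in opposite directions in the livers of the 2 genotypes, and the difference was not tested. Xcl1 had a log2 ratio of -1.56 in EomesTG liver (68.1 against 200.5 CPM) and of 1.78 in WT liver (1.53 to 2.01), where 25 cells met the rule and stood at 1242 CPM against 363. Pdcd1 had a log2 ratio of 0.10 in EomesTG liver and of -1.71 in WT liver (-2.85 to -0.77), where 5 of the 25 cells had a Pdcd1 UMI while all reference cells had to hold one.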

How the results depend on the processing

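Leaving out a replicate was impossible with 1 library per group, and no paired analysis was possible because no group has 2 samples. The share of members was 38.5% with 1 UMI as the threshold, 18.1% with 3 and 16.2% after thinning to 2000 UMIs. It was 11.8, 24.8, 20.6 and 25.5% without Cd200r2, Glp1r, Cela1 and Ccdc80 in the set. The share of members in clone 1 was 28.4% with a threshold of 1, 36.9% with 3 and 27.1% by the clonotype number of the deposited contig table, and 38.8% of clone 1 were members after thinning. Genes higher and lower than in the reference numbered 39 and 44 as reported, 334 and 158 against all other cells, 613 and 409 with each clone counted once, 97 and 83 without the 3 largest clones (an alternative chosen after seeing the data), 1043 and 1259 without a floor, 15 and 15 with a floor of 50 CPM, and 12 and 19 at 2-fold. After thinning 114 were higher. Against Prss2 Coch cells they were 598 and 239 after thinning and 102 and 47 with the higher floor, and against Slc16a11 Calcb cells 688 and 732, and 106 and 161. The cause was not tested. Without the Prss2 Coch and Slc16a11 Calcb cells in the reference the rule genes Penk and Clec10a turned to log2 ratios of 1.92 and 1.66, and Cd200r3, of few UMIs, turned to -0.21 after thinning. Over the named genes 333 of 462 alternatives stayed within the main interval, 126 moved and those 3 reversed. Neighbour shares were 51.4 and 53.1% with 30 neighbours or 20 components. UMI counts without mouse labels limit every value to these pooled libraries, and Ccdc80 and Glp1r are too thinly counted for single small clones.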

Other observations

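Gzmc, which encodes granzyme C, had 91 UMIs in members and 4 in reference cells, 16.1 against 0.536 CPM, under the floor of 20 CPM and singled out after its values were seen. A single member held 84 of the 91 UMIs. The other 6 members with Gzmc held 7, so the group value stood for 1 cell.

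Several genes of naive and stem-like T cells had lower values in members without passing the floor. Of 16 listed genes 4 passed it and 1 of these was lower, Id3, while below it Ccr7 was at 9.93 against 22.7 CPM, Slamf6 at 9.40 against 24.7 and S1pr1, the receptor for exit from tissue, at 5.85 against 19.7. The chemokine receptor gene Cx3cr1 was at 4.43 against 18.1 CPM. These genes were chosen after their values were seen.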
